A study of Mus musculus with 6 samples.

Results

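The genes of conjugating (phase II) and aldehyde-metabolizing enzymes were examined in lungs of mice with mutant EGFR-driven lung cancer that were fed a high-fat diet (HFD) or a regular diet (RD). Members were genes with symbols of the glutathione S-transferases (Gst and Mgst), UDP-glucuronosyltransferases and relatives (Ugt), sulfotransferases (Sult), aldehyde dehydrogenases (Aldh) and aldo-keto reductases (Akr). They were read from probe sets annotated to exactly 1 gene. Gsta3, Aldh1a1 and Aldh1a2 were left out by name. The rule gave 79 genes with 119 probe sets, of 18193 genes and 45037 probe sets in all. Each gene was read from the probe set with the highest mean over the 6 arrays, which uses no difference between the groups.

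Expression was measured in whole lungs of 3 LC-HFD mice and of 3 LC-RD mice, and the RNA of each mouse was read on its own Affymetrix array. All mice were male and carried the transgenes CC10-rtTA and tet-O-EGFR-L858R on a C57BL/6 background, so that doxycycline (Dox) induced the mutant human receptor in airway epithelial cells that use the CC10 promoter. Both groups received Dox, given by the labels as 625 ppm in the food plus 2 mg/ml in drinking water, and 60% of the energy of the HFD came from fat. Feeding began at an age of 6 weeks by the study's scheme and of 6 to 8 weeks by its methods. The scheme has 2 weeks of diet and then 8 weeks of the same diet with Dox, whereas the labels describe diet until 8 weeks followed by 7 weeks of Dox. Values are log2 signals on an arbitrary scale, so a difference of 1 is a 2-fold change. Levels were compared between groups within a probe set and not between genes.

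Phase II enzymes attach a polar group to a foreign or endogenous compound, which makes it easier to export. Glutathione transferases add glutathione, UDP-glucuronosyltransferases add a sugar acid and sulfotransferases add sulfate. Aldehyde dehydrogenases oxidize reactive aldehydes, such as those from lipid peroxidation, to acids, and aldo-keto reductases reduce aldehydes and ketones, steroids included, to alcohols. In the lung these enzymes are known above all from club cells of the airways. Many of their genes are targets of NRF2 (Nfe2l2), which binds antioxidant response elements, and some are targets of the aryl hydrocarbon receptor (Ahr), which binds xenobiotic response elements.

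The letters of these elements were looked for in the 250 bases before the start sites of the members, in promoter sequences from RefSeq (GRCm38.p6) that were found for 67 of the 79. The core of the antioxidant response element, TGACNNNGC, was present on either strand in 5 members (7.46%), against 11.5% of 27025 genes, and the core of the xenobiotic response element, GCGTG, in 15 members (22.4%), against 30.9% of all genes. Among the members that were lower in LC-HFD, 2 of the 12 with a sequence held the antioxidant core and 4 held the xenobiotic core. The promoters of Gsta2 and Aldh1l1, the only members over 2-fold lower in LC-HFD, and of Gstm5 and Mgst1, the only lower members with the antioxidant core, are shown so that the matches can be seen in place. They were picked after the values and the matches had been seen. Capitals mark matches to either core, read 5′ to 3′ on the strand of the gene, and a match on the other strand appears as its reverse complement.

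Gsta2, chr9:78347146-78347395, minus strand: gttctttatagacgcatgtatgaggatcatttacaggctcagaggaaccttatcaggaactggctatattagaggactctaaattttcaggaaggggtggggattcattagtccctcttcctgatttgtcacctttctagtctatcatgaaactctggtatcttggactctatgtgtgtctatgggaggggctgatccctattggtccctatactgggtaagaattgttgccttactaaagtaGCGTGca
Gstm5, chr3:107895604-107895853, plus strand: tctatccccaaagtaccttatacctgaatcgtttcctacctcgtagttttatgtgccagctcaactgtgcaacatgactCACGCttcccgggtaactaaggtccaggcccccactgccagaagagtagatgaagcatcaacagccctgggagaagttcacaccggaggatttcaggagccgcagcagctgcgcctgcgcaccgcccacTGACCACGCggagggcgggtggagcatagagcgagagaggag
Mgst1, chr6:138140277-138140526, plus strand: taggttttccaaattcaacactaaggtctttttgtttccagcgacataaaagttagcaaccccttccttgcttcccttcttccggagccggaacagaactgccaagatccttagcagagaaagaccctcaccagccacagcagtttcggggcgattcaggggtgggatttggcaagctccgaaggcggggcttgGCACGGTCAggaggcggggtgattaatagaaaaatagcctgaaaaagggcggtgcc
Aldh1l1, chr6:90550543-90550792, plus strand: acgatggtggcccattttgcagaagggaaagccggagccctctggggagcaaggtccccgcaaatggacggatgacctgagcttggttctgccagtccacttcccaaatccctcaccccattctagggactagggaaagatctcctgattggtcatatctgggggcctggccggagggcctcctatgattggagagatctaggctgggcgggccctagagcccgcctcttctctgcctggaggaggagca

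Gsta2 holds 1 xenobiotic core, at positions −7 to −3 from the start site. In Gstm5 the antioxidant core lies at positions −42 to −34 from the start site and overlaps a xenobiotic core on the other strand, and a second xenobiotic core lies further upstream. The antioxidant core of Mgst1 lies at positions −56 to −48, on the other strand, in the first of 2 windows of that gene. The second window, chr6:138141337-138141586, holds neither core and is not shown. The Aldh1l1 window holds neither core. A match is a description of letters and was not tested as a site.

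Most members differed little between LC-HFD and LC-RD lungs. Of the 79 genes 6 were higher in LC-HFD and 14 lower, while 59 did not pass at an adjusted p under 0.05 (limma, Benjamini-Hochberg adjustment over all 45037 probe sets). The share that passed was 25.3%, against 27.3% of all 18193 genes and 25% of all probe sets. The share that was higher was 7.59%, against 11.1% of all genes, and the share that was lower was 17.7%, against 16.2%. No member was over 2-fold higher, against 0.605% of all genes, and Gsta2 and Aldh1l1 were over 2-fold lower, against 1.07% of all genes. The 3 LC-HFD and the 3 LC-RD arrays did not overlap for 36 members (45.6%, against 49.1% of all genes). The median difference, LC-HFD minus LC-RD, was −0.05 over the members and 0.02 over all genes. By counts the members as a whole were thus near the background.

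The direction went with the signal level. Of the 34 members whose mean log2 value reached 6, 31 had a difference below 0 and 3 above it. The share above 0 was 8.82%, against 39% of the 9084 genes at that level, and the median difference was −0.18, against −0.07. In these 34 members 10 were lower (29.4%, against 23.4%) and 0 were higher (against 12.1%). Of the 31 members with a mean under 4, 24 had a difference above 0 (77.4%, against 77.3% of 5110 genes at that level), with a median of 0.13 against 0.15. The 14 members in between held 3 higher and 3 lower genes. Low signals on this array scale thus leaned to higher values in LC-HFD among the members and among all genes alike.

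**Figure D1:**
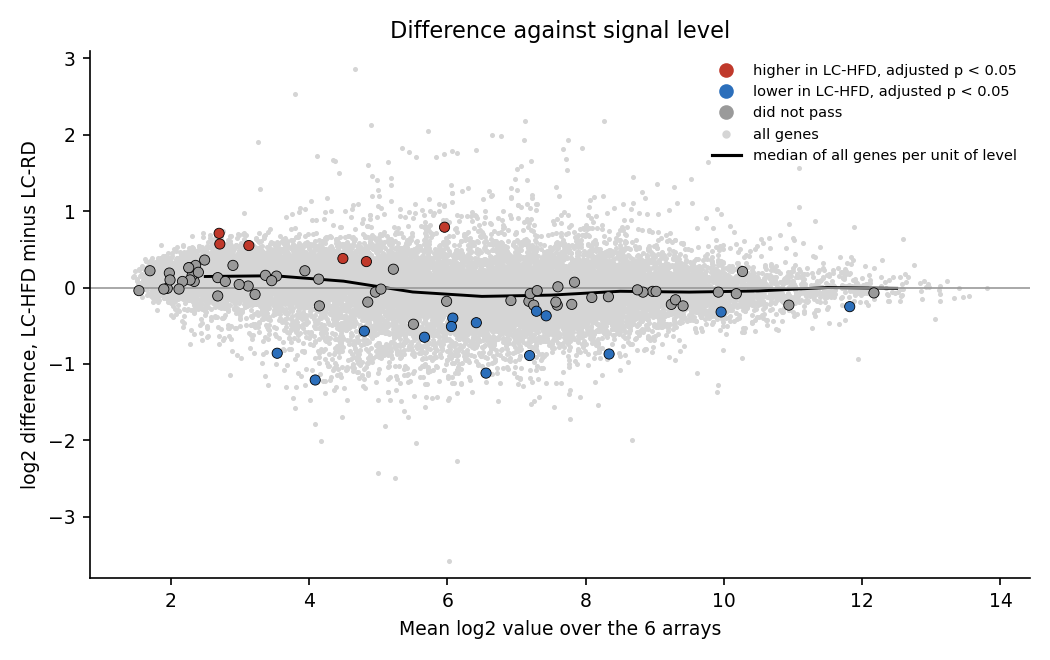
Difference in log2 value, LC-HFD minus LC-RD, against the mean log2 value over the 6 arrays. Large points are the 79 members, colored by test result, small grey points are all 18193 genes and the line is the median of all genes per unit of level; 31 of the 34 members with a mean of at least 6 lie below 0.

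Some features of the arrays moved with the groups and touch every difference given here. Hybridization controls, RNA added just before hybridization, read 11.49 to 11.53 on LC-HFD arrays and 10.01 to 10.04 on LC-RD arrays. Poly-A controls read 6.49 to 6.57 on LC-HFD arrays and 6.89 to 6.99 on LC-RD arrays, and probe sets for 18S rRNA read 7.57 to 7.69 on LC-HFD arrays and 12.51 to 12.54 on LC-RD arrays. The effect of diet and any effect of how the arrays were handled thus cannot be told apart. The median signal was 4.79 to 4.84 on every array. A measure of RNA integrity, the signal of control genes at the 3′ end minus that at the 5′ end, was 1.58 to 1.70 on LC-HFD arrays and 1.70 to 1.76 on LC-RD arrays. In a fit that included it 4 members were lower and 1 was higher, a gene that did not pass without it. Of all probe sets 7.9% passed, against 25% without it. The 20 passing members kept their sign in that fit, with a median size of difference of 0.44, against 0.56 without it. Leaving out LC-RD replicates 1, 2 or 3 left 8, 7 and 9 lower members and 3, 3 and 5 higher ones. The share of all probe sets that passed was 13%, 12.9% and 17.8% in these 3 fits, against 25% with all arrays.

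**Figure D2:**
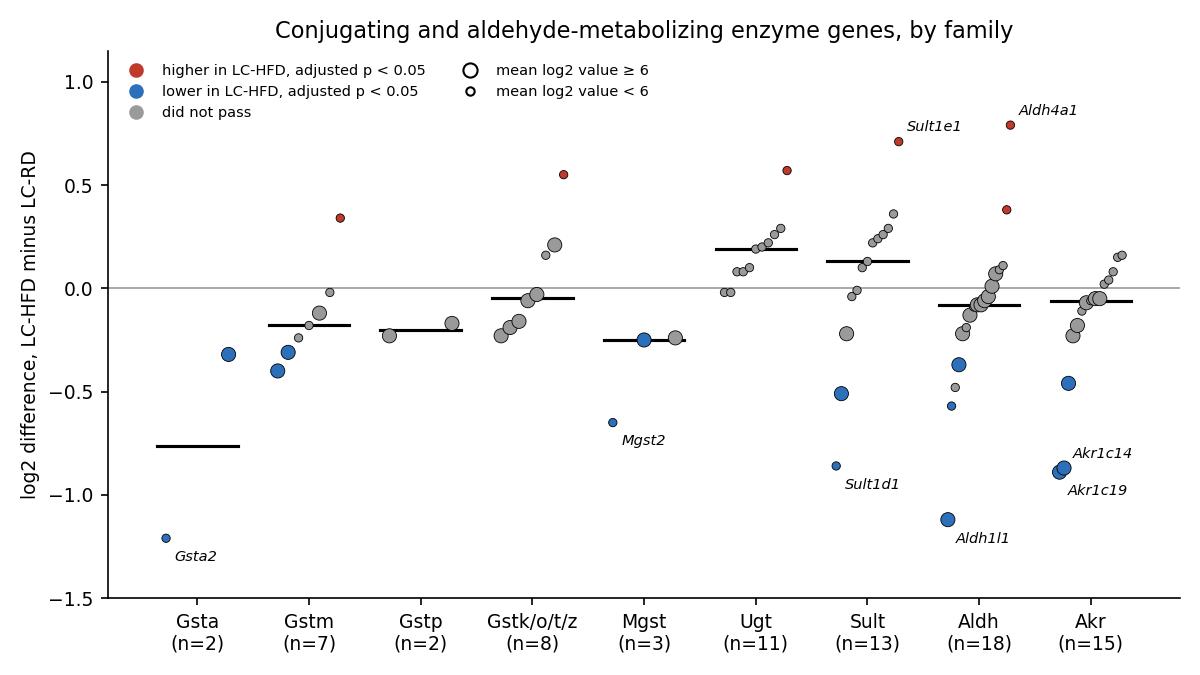
Difference in log2 value, LC-HFD minus LC-RD, of each member by enzyme family. Each point is 1 gene, large where its mean log2 value was at least 6, bars are family medians, and genes that differed by more than 0.6 are named; all 3 Mgst genes and both Gsta genes lie below 0.

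Of the 22 glutathione transferases 6 were lower (27.3%, against 16.2% of all genes) and 2 were higher (9.09%, against 11.1%), whereas 14 did not pass. Of the 22, 14 had a mean of at least 6, a level at which 23.4% of all genes were lower and 12.1% higher. A difference below 0 was seen in 18 of the 22, with a median of −0.19, against −0.07 over all genes at that level. The share above 0 was 18.2%, against 39% of all genes at that level. Both members of the alpha class, Gsta2 and Gsta4, were lower. In the mu class Gstm5 and Gstm2 were lower and Gstm7 was higher, and of the microsomal enzymes Mgst1 and Mgst2 were lower. In the kappa, omega, theta and zeta classes Gstt4 was higher and the other 7 genes did not pass, as did neither of the 2 genes of the pi class.

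Gsta2, an alpha-class transferase, had the largest difference of any member on the probe sets used. It read 3.46, 3.50 and 3.49 in LC-HFD lungs, against 4.8, 4.95 and 4.31 in LC-RD lungs. The LC-HFD values were nearly equal, lay in the low range under 4 and were all below the LC-RD values, of which replicate 3 was the lowest. The difference was −1.21 ± 0.158 (SE), a 2.31-fold lower signal (adjusted p = 0.00262, limma). Without LC-RD replicate 3 it was −1.39. A probe set shared by Gsta2, Gsta1 and Gm3776, which is not counted among the members, differed by −0.36 (adjusted p = 0.0664).

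Gsta4, which conjugates 4-hydroxynonenal, a product of lipid peroxidation, read 9.75, 9.83 and 9.82 in LC-HFD lungs and 10.18, 10.13 and 10.05 in LC-RD lungs. The groups did not overlap, and the difference was −0.32 ± 0.0745 (SE, adjusted p = 0.0206). It did not pass in 4 of 15 alternative analyses, those without LC-RD replicate 1, without LC-RD replicate 2, with a block on replicate number and with the RNA integrity measure, and its difference was −0.36 to −0.29 over the 15. Mgst1, the abundant microsomal transferase that also reduces lipid peroxides, read 11.69, 11.69 and 11.72 in LC-HFD lungs and 11.99, 12 and 11.85 in LC-RD lungs. Its difference was −0.25 ± 0.0749 (SE, adjusted p = 0.0481), and it passed in 7 of the 15 alternatives. Its second probe set, at low signal, differed by 0.20 (adjusted p = 0.392), and the mean of both by −0.03 (adjusted p = 0.845). Mgst2, which can conjugate glutathione to leukotriene A4, averaged 5.35 ± 0.316 in LC-HFD and 5.99 ± 0.151 in LC-RD (SD, n = 3 each), a difference of −0.65 (adjusted p = 0.0282), and passed in 7. Mgst3 averaged 9.29 ± 0.0876 in LC-HFD and 9.53 ± 0.0367 in LC-RD, without overlap, and missed the threshold (−0.24, adjusted p = 0.0576).

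The 7 mu-class genes lie next to each other on chromosome 3, in the order Gstm5, Gstm7, Gstm6, Gstm3, Gstm2, Gstm1 and Gstm4, and did not move as one. Gstm5 read 5.90, 6.04 and 5.69 in LC-HFD lungs, all below 6.33, 6.33 and 6.19 in LC-RD lungs (difference −0.40 ± 0.106 SE, adjusted p = 0.0314). Gstm2 read 7.28, 7.14 and 6.99 in LC-HFD lungs and 7.42, 7.47 and 7.44 in LC-RD lungs (−0.31 ± 0.0904 SE, adjusted p = 0.0458). Gstm7, the neighbor of Gstm5, went the other way with 4.82, 5.02 and 5.17 in LC-HFD lungs and 4.63, 4.63 and 4.71 in LC-RD lungs (0.34 ± 0.102 SE, adjusted p = 0.0464). These 3 results lay close to the threshold, and Gstm5 passed in 7 of the 15 alternatives, Gstm2 in 5 and Gstm7 in 5. A second probe set of Gstm7, at lower signal, overlapped between the groups and differed by −0.10 (adjusted p = 0.66). Gstm1 overlapped between the groups and did not pass on the probe set used (8.27 ± 0.113 in LC-HFD and 8.39 ± 0.136 in LC-RD, adjusted p = 0.416), although 1 of its other 3 probe sets did (−0.41, adjusted p = 0.0168). Mu-class genes are close in sequence, and a probe set named for one can also read another.

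Of the remaining cytosolic transferases, Gstp1, the pi-class enzyme, read 10.83, 10.81 and 10.83 in LC-HFD lungs and 11.07, 10.99 and 11.10 in LC-RD lungs. The groups were apart, but the difference of −0.23 just missed the threshold (adjusted p = 0.0502). Gstt1, a theta-class enzyme, was the only member with a mean of at least 6 whose arrays lay apart in the upward direction, with 10.38, 10.40 and 10.35 in LC-HFD lungs and 10.14, 10.16 and 10.19 in LC-RD lungs. It did not pass either (0.21, adjusted p = 0.0549). Gstt2, 2 genes further along in the theta cluster of chromosome 10, differed by −0.23 (adjusted p = 0.0542), and Gstt4, which lies between them, by 0.55 at low signal, with means of 3.41 in LC-HFD and 2.86 in LC-RD (adjusted p = 0.0446). Gstt4 passed in 5 of the 15 alternatives and was not tested in those with minimum means of 4 and 6.

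**Figure D3:**
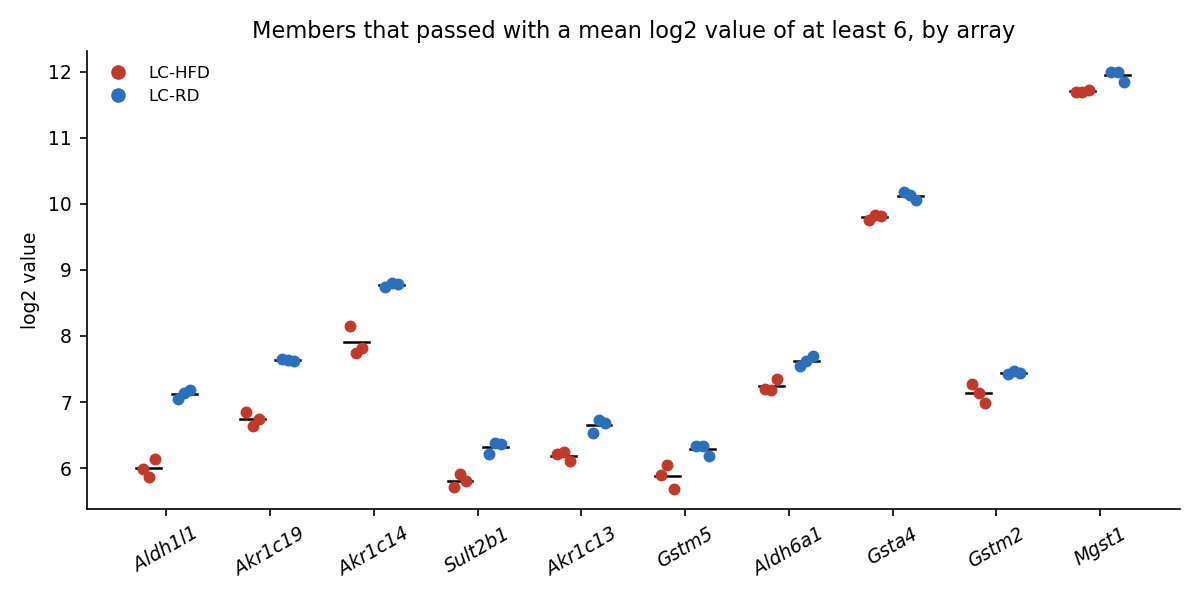
Log2 value on each array of the 10 members that passed and had a mean log2 value of 6 or more, ordered by their difference. Each point is 1 mouse and each line the mean of 3, LC-HFD in red and LC-RD in blue. In all 10 genes every LC-HFD value lies below every LC-RD value. The 10 genes were picked for passing on these same values, and the groups did not overlap for 64.3% of all genes at that level.

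The Ugt genes read by an unshared probe set gave low signals throughout. All 11 had a mean under 4, 9 had a difference above 0, and the median was 0.19, close to the 0.15 of all genes at that level. The share that was higher was 9.09%, against 8.53% of all genes at that level. Ugt2b36, of the Ugt2b group that acts on steroids and bile acids in liver, was the only one that passed, with 2.90, 3.13 and 2.96 in LC-HFD lungs and 2.49, 2.40 and 2.39 in LC-RD lungs (0.57 ± 0.0865 SE, adjusted p = 0.00445). Its 7 neighbors on chromosome 5 differed by −0.02 to 0.26, and none passed. Ugt3a1, the member of the family with the highest mean, averaged 4.05 ± 0.0574 in LC-HFD lungs and 3.83 ± 0.13 in LC-RD lungs and did not pass (adjusted p = 0.119).

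Of the 13 sulfotransferases 2 were lower, Sult2b1 and Sult1d1, 1 was higher, Sult1e1, and 10 did not pass. The share that was lower was 15.4%, against 16.2% of all genes, and the share that was higher was 7.69%, against 11.1%. The median difference was 0.13, and 10 of the genes had a mean under 4. Sult2b1, which sulfates cholesterol and related steroids, read 5.71, 5.91 and 5.80 in LC-HFD lungs and 6.22, 6.38 and 6.36 in LC-RD lungs. The groups were apart by more than the spread within either (−0.51 ± 0.0859 SE, adjusted p = 0.00636), and the gene failed to pass only in the fit with the RNA integrity measure. Sult1a1, which sulfates phenols, averaged 7.70 ± 0.0975 in LC-HFD and 7.91 ± 0.0652 in LC-RD, without overlap, and did not pass (−0.22, adjusted p = 0.0984).

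Sult1d1 and Sult1e1 are neighbors on chromosome 5 and differed in opposite directions at low signal. Sult1d1, which acts on catecholamines in mice, read 3.32, 2.64 and 3.38 in LC-HFD lungs and 3.87, 4.24 and 3.81 in LC-RD lungs (−0.86 ± 0.213 SE, adjusted p = 0.0254). Sult1e1, the estrogen sulfotransferase, read 2.97, 3.05 and 3.13 in LC-HFD lungs and 2.55, 2.20 and 2.28 in LC-RD lungs (0.71 ± 0.109 SE, adjusted p = 0.00472). Neither gene overlapped between the groups on the probe set used. Sult1d1 did not pass without any one of the 3 LC-RD replicates. A second probe set of Sult1d1 overlapped between the groups and did not pass (−0.42, adjusted p = 0.43).

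Of the 18 aldehyde dehydrogenases 3 were lower, Aldh1l1, Aldh3a1 and Aldh6a1, 2 were higher, Aldh4a1 and Aldh3b2, and 13 did not pass. The share that was lower was 16.7%, against 16.2% of all genes, and the share that was higher was 11.1%, against 11.1%. The median difference was −0.08. Aldh1l1 encodes cytosolic 10-formyltetrahydrofolate dehydrogenase, which releases carbon dioxide from the folate pool. It read 5.99, 5.87 and 6.14 in LC-HFD lungs and 7.04, 7.13 and 7.18 in LC-RD lungs. The groups were far apart relative to the spread within either, and the difference was −1.12 ± 0.0918 (SE), a 2.17-fold lower signal (adjusted p = 0.000567). It passed in each of the 15 alternatives, with −0.96 in the fit with the RNA integrity measure. The second probe set of the gene had a low signal and differed by 0.10 (3.11 ± 0.325 in LC-HFD and 3.02 ± 0.189 in LC-RD, adjusted p = 0.7), and the mean of both differed by −0.51.

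Aldh3a1, which oxidizes medium-chain and aromatic aldehydes, read 4.71, 4.46 and 4.38 in LC-HFD lungs and 5.03, 5.13 and 5.09 in LC-RD lungs (−0.57 ± 0.102 SE, adjusted p = 0.00839). Aldh6a1, the mitochondrial methylmalonate semialdehyde dehydrogenase of valine breakdown, read 7.20, 7.18 and 7.35 in LC-HFD lungs and 7.54, 7.62 and 7.69 in LC-RD lungs (−0.37 ± 0.083 SE, adjusted p = 0.0178). Aldh4a1, which acts in proline breakdown, read 6.13, 6.27 and 6.67 in LC-HFD lungs and 5.63, 5.57 and 5.50 in LC-RD lungs. That gene had the largest increase of any member (0.79 ± 0.139 SE, adjusted p = 0.0076), with LC-HFD replicate 3 the highest. Aldh3b2, a membrane-bound enzyme for fatty aldehydes in mice, differed by 0.38 (adjusted p = 0.047) and passed in 4 of the 15 alternatives. Aldh18a1, which makes proline, did not pass on the probe set used (−0.04), while 1 of its other 4 probe sets did (0.51, adjusted p = 0.0126). Aldh1a7, a relative of the retinal-oxidizing enzyme Aldh1a1, averaged 10.14 ± 0.0658 in LC-HFD lungs and 10.22 ± 0.0505 in LC-RD lungs and overlapped between the groups.

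Aldh2, the mitochondrial enzyme that clears acetaldehyde and lipid aldehydes, gave answers that depended on the probe set. The probe set with the highest mean, 1448143_at, read 9.91, 9.83 and 9.94 in LC-HFD lungs and 9.98, 9.98 and 9.89 in LC-RD lungs. The groups overlapped, and the difference was −0.06 ± 0.074 (SE, adjusted p = 0.602). A second, 1437410_at, read 6.50, 6.44 and 6.48 in LC-HFD lungs and 6.32, 6.37 and 6.27 in LC-RD lungs, a difference of 0.15 that did not pass (adjusted p = 0.16).

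The other 3 probe sets of Aldh2 were lower in LC-HFD, a direction in which 13.6% of all probe sets passed, and 2 of them were over 2-fold lower, as were 1.06% of all probe sets. Probe set 1434987_at read 2.93, 2.70 and 2.96 in LC-HFD lungs and 6.41, 6.49 and 6.18 in LC-RD lungs, a difference of −3.50 ± 0.113 (SE, adjusted p = 3.59e-05). Probe set 1434988_x_at read 4.65, 3.30 and 4.15 in LC-HFD lungs and 7.02, 7.15 and 6.85 in LC-RD lungs, a difference of −2.97 ± 0.308 (SE, adjusted p = 0.00118). In both the LC-HFD arrays lay far below the LC-RD arrays, and in 1434987_at they lay in the low range under 3, so no fold is given. Probe set 1457155_at read 3.70, 3.45 and 4.11 in LC-HFD lungs and 4.70, 4.60 and 4.65 in LC-RD lungs (−0.90 ± 0.16 SE, adjusted p = 0.00799).

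The range of differences over the 5 probe sets was 3.65 log2 units. Over 9010 genes with several probe sets the median range was 0.33, and 2 genes, Aldh2 included, had a range at least as large as that of Aldh2. The mean over its 5 probe sets differed by −1.45 (adjusted p = 0.000455), so whether Aldh2 counts as lower depends on how its probe sets are joined. Which part of the transcript each probe set reads was not analyzed here.

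**Figure D4:**
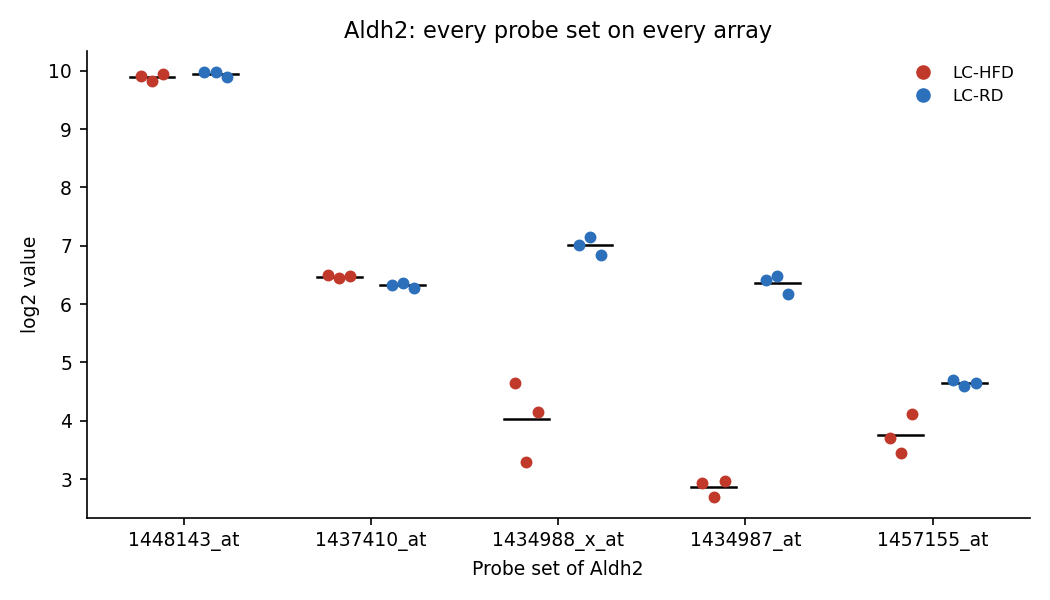
Log2 value of each of the 5 Aldh2 probe sets on each array, LC-HFD in red and LC-RD in blue, with lines at the means of 3 mice. The groups nearly coincide for 1448143_at and 1437410_at and lie 3.50 apart for 1434987_at and 2.97 apart for 1434988_x_at.

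Among the other 25 members with several probe sets the disagreement was smaller. Of all 26 such members 22 had a range of differences under 0.5, 8 had some probe sets that passed and some that did not, and 0 had probe sets that passed in opposite directions. Akr1b10 was one of the 8. The probe set used differed by −0.18 (adjusted p = 0.162), while another read 4.71, 4.19 and 4.65 in LC-HFD lungs and 5.50, 5.65 and 5.27 in LC-RD lungs (−0.95, adjusted p = 0.00644).

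Of the 15 aldo-keto reductases 3 were lower (20%, against 16.2% of all genes) and 0 were higher (against 11.1%). The other 12 did not pass. Of the 15, 8 had a mean of at least 6, a level at which 23.4% of all genes were lower and 12.1% higher. The 3 lower genes were Akr1c19, Akr1c14 and Akr1c13, all of the Akr1c group, whose enzymes include hydroxysteroid dehydrogenases. Akr1c19 read 6.85, 6.64 and 6.74 in LC-HFD lungs and 7.65, 7.63 and 7.62 in LC-RD lungs. The LC-RD values were nearly equal, the groups did not overlap, and the difference was −0.89 ± 0.0798 (SE), or 1.85-fold (adjusted p = 0.000733). Akr1c14, a 3-alpha-hydroxysteroid dehydrogenase, read 8.15, 7.74 and 7.82 in LC-HFD lungs and 8.74, 8.80 and 8.79 in LC-RD lungs (−0.87 ± 0.116 SE, adjusted p = 0.00276). Akr1c13 read 6.22, 6.24 and 6.11 in LC-HFD lungs and 6.53, 6.73 and 6.68 in LC-RD lungs (−0.46 ± 0.0861 SE, adjusted p = 0.00954). Every LC-HFD value of Akr1c14 and Akr1c13 too lay below every LC-RD value. Akr1c14 and Akr1c19 passed in all 15 alternatives and Akr1c13 in 14.

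The Akr1c genes stand side by side on chromosome 13 in the order Akr1c14, Akr1c18, Akr1c13, Akr1c19, Akr1c12, Akr1c6, Akr1c20 and Akr1c21. The 3 lower genes lie at one end of the row, with Akr1c18 (0.15, adjusted p = 0.565) between them. The other 5 genes of the row differed by 0.15, −0.06, 0.02, 0.08 and −0.11 in that order, and none passed. Except for Akr1c12 these 5 had mean signals under 4. A probe set shared by Akr1c12 and Akr1c13 differed by −0.35 (adjusted p = 0.0378). Outside this group Akr1a1, which reduces glucuronate and many aldehydes, averaged 12.13 ± 0.0271 in LC-HFD lungs and 12.20 ± 0.093 in LC-RD lungs and overlapped between the groups (−0.07, adjusted p = 0.518).

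Genes that act around these enzymes were read from lists written from general knowledge. Of all genes 16.2% were lower and 11.1% were higher, and each list and marker count below stands beside these shares. Among all genes with a mean of at least 6 the shares were 23.4% and 12.1%. That level was reached by 12 of 13 genes in the cosubstrate list, 17 of 19 NRF2 targets and 21 of 25 glutathione genes. Of the 13 measured genes that make, move or use up the cosubstrates of glucuronidation and sulfation or cleave the conjugates, 7 were lower (53.8%) and 0 were higher, with a median of −0.29. Of the 7, Papss1, Papss2 and Ugdh make cosubstrates and Slc35b3 moves one, whereas Uxs1, Bpnt1 and Arsb do neither. Papss2, which makes the sulfate donor, averaged 5.31 ± 0.0526 in LC-HFD and 6.07 ± 0.224 in LC-RD (−0.76, adjusted p = 0.00491), and its relative Papss1 averaged 8.49 ± 0.0727 in LC-HFD and 8.88 ± 0.068 in LC-RD (−0.40, adjusted p = 0.0115). Ugdh, which makes UDP-glucuronate, read 7.90, 7.72 and 7.84 in LC-HFD lungs and 8.35, 8.33 and 8.52 in LC-RD lungs (−0.58, adjusted p = 0.00458). Uxs1, which converts UDP-glucuronate to UDP-xylose, differed by −0.48 (adjusted p = 0.0134).

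Of the 17 measured genes of other conjugating and quinone-reducing enzymes, 10 were lower (58.8%) and 2 were higher (11.8%), with a median of −0.57. Cbr2, a carbonyl reductase abundant in mouse lung, read 11.43, 11.50 and 11.48 in LC-HFD lungs and 12.39, 12.38 and 12.43 in LC-RD lungs (−0.93, adjusted p = 0.00038). Its relatives Cbr3 and Cbr4 differed by −0.89 (adjusted p = 0.000524) and −0.77 (adjusted p = 0.00197), and the arylamine acetyltransferase Nat2 by −0.71 (adjusted p = 0.000998). Nqo1, a quinone reductase and a classical NRF2 target, read 4.31, 3.86 and 3.25 in LC-HFD lungs and 5.25, 5.45 and 5.15 in LC-RD lungs (−1.47, adjusted p = 0.00636). All of these genes were apart between the groups, with the LC-HFD lungs lower, but they were picked for passing on these same values. Of the 17 genes of the list 13 were apart (76.5%, against 49.1% of all genes), 11 with the LC-HFD lungs lower and 2 with them higher.

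Of the 19 measured NRF2 targets other than the members, 5 were lower (26.3%), 2 were higher (10.5%) and the median was −0.13. Besides Nqo1 and Cbr3, the sulfiredoxin gene Srxn1 differed by −0.58 (adjusted p = 0.00356) and the glutathione peroxidase gene Gpx2 by −0.50 (adjusted p = 0.011). Of 16 regulators 4 were higher (25%), 2 were lower (12.5%) and the median was 0.15. The direction of Nfe2l2 depended on the probe set. The probe set with the highest mean read 10.72, 10.66 and 10.80 in LC-HFD lungs and 10.43, 10.49 and 10.44 in LC-RD lungs (0.27, adjusted p = 0.034), whereas the other read 4.23, 4.75 and 5.02 in LC-HFD lungs and 6.12, 6.19 and 6.18 in LC-RD lungs (−1.5, adjusted p = 0.00218). Keap1, which marks NRF2 for degradation, also differed by 0.27 (adjusted p = 0.0352). Mafk, a partner of NRF2, differed by 0.45 (adjusted p = 0.00663), and Bach1, which competes with NRF2 for its sites, by −0.41 (adjusted p = 0.00827). Ahr differed by −0.36 (adjusted p = 0.0106), and Hnf4a, a regulator of liver genes, by 0.57 (adjusted p = 0.0234). Keap1, Bach1, Ahr and Hnf4a have further probe sets of lower signal, none of which passed.

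Genes for glutathione synthesis and recycling were mixed, with 7 of 25 lower (28%), 3 higher (12%) and a median of 0. Anpep, an aminopeptidase of glutathione breakdown outside the cell, read 7.02, 6.88 and 7.17 in LC-HFD lungs and 5.27, 5.35 and 5.16 in LC-RD lungs (1.77, adjusted p = 0.000166). Chac2, which degrades glutathione inside the cell, read 6.33, 5.91 and 5.99 in LC-HFD lungs and 7.19, 7.30 and 7.14 in LC-RD lungs (−1.13, adjusted p = 0.00131). Dpep1, a dipeptidase of the same breakdown, differed by −0.71 (adjusted p = 0.0168), and the secreted peroxidase gene Gpx3 by 0.69 (adjusted p = 0.00248). Of 11 alcohol dehydrogenases, retinol dehydrogenases and aldehyde oxidases 4 were lower (36.4%) and 0 higher, with −0.74 for Rdh11 (adjusted p = 0.00205), −0.66 for Aox3 (adjusted p = 0.00463), −0.36 for Aox1 (adjusted p = 0.0284) and −0.25 for Adh1 (adjusted p = 0.031). Of 10 exporters of conjugates 3 were higher (30%) and 2 lower (20%), and Abcc5, a transporter of organic anions, had the largest difference on the probe sets used (0.77, adjusted p = 0.000742), although another of its probe sets was lower (−0.33, adjusted p = 0.0219).

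**Figure D5:**
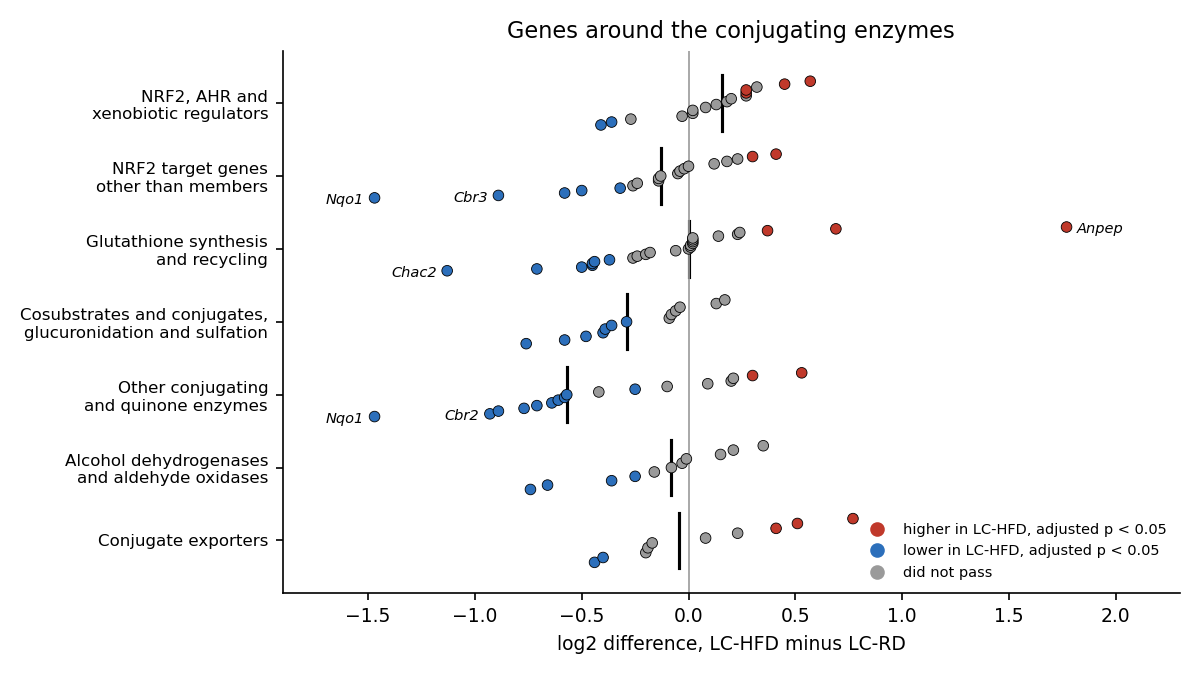
Difference in log2 value, LC-HFD minus LC-RD, of the measured genes of 7 lists around the conjugating enzymes. Each point is 1 gene, vertical bars are list medians and the genes that differed most are named; the medians are −0.57 for other conjugating and quinone enzymes, −0.29 for cosubstrates and conjugates and 0.15 for the regulators.

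In whole-lung RNA, fewer cells of a type and less RNA per cell cannot be told apart. Of 6 club cell markers 3 were lower (Cldn10, Scgb3a2 and Cyp2f2), 2 were higher (Scgb3a1 and Bpifa1) and Scgb1a1, the product of the CC10 gene, did not pass (−0.11, adjusted p = 0.261). The mean of the list was 9.03 to 9.17 on LC-HFD arrays and 9.18 to 9.24 on LC-RD arrays, and the 6 genes had mean signals of 4.19 to 13.54. Of 6 ciliated cell markers 2 were lower, and of 6 fibroblast markers 4 were lower and 1 was higher. Of 5 hepatocyte markers 2 were higher, with a list mean of 4.61 to 4.75 on LC-HFD arrays and 4.21 to 4.30 on LC-RD arrays. Of 4 adipocyte markers 1 was higher, and of 5 macrophage markers 2 were higher. Of 6 endothelial markers 2 were higher and 1 was lower, and of 6 alveolar type I markers 1 was higher and 1 was lower. Of 5 alveolar type II markers 1 was higher on the probe set used, Abca3 (0.30, adjusted p = 0.0189). Another probe set of Abca3 was lower (−0.49, adjusted p = 0.0195), and its remaining probe set differed by −0.11 (adjusted p = 0.252). Of 6 cardiac muscle markers 4 were lower, at 4.30 to 4.32 in LC-HFD and 4.73 to 4.95 in LC-RD. The alveolar markers of lung were strong in both groups, with list means of 12.69 to 12.75 in LC-HFD and 12.62 to 12.68 in LC-RD for type II cells. Among these Sftpc read 13.81 on every array, which is also the highest mean of all genes, so a difference in it could be hidden. The part of these cell types in the differences of the members was not tested.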

How the data were processed

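RNA from lungs of 3 mice per group was hybridized to 1 array per mouse, without pooling. The authors deposited 1 table of log2 values per probe set and array, made with GCRMA according to the submitters' processing notes. That method models background from the probe sequences and normalizes the arrays together. Its version is not given in the sources used for this work. Whether such values compress differences at low signal was not tested here. The labels' groups HFD+Dox and RD+Dox correspond to LC-HFD and LC-RD.

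The values were not normalized again. After removal of 64 control probe sets, 45037 were tested with limma 3.58.1 in R 4.3.3 (two-sided, moderated, Benjamini-Hochberg adjustment). A result passed at an adjusted p under 0.05. The 3 arrays per group limit the precision, and no depth applies to arrays. Of the probe sets, 34945 had 1 gene in the platform annotation, 932 had several and 9160 had none.

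Members and lists were chosen with earlier results of these data known. Named genes were members over 2-fold, up to 4 passing members per family with a mean of at least 6, the member with the highest mean per family, members whose probe sets disagreed, Aldh2, and up to 4 passing genes per related list. Other named genes (Gstm7, Gstt2, Gstt4, Mgst2, Mgst3, Ugt2b36, Sult1d1, Sult1e1, Aldh3a1, Aldh3b2, Aldh4a1, Aldh18a1, Akr1b10, Akr1c12, Akr1c18, Keap1, Nfe2l2, the marker genes and genes named only for position) were chosen after their values were seen.

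Alternatives were the methods' t-test with adjustment, quantile normalization, centering on array medians, weights for arrays, a robust variance prior with a trend on intensity, minimum means of 4 and 6, the RNA integrity measure as a covariate, a block on replicate number, the mean over a gene's probe sets and each array left out. The 15 alternatives counted per gene leave out the mean over probe sets. A gene below a minimum mean was not tested in that alternative, which was not counted as passed. The limma step was tested on simulated data, where small changes were recovered in part only, so a gene that did not pass may still differ. The criterion of that test was changed after its first result had been seen. The 8 family probe sets of several genes were not counted. Figures were drawn with matplotlib 3.10.9.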

Additional observations from a re-analysis of the deposited data

How the results depend on the processing

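No member that passed changed direction in any alternative. Of the others 21 did so in at least 1 of the 15 alternatives, all with a difference of at most 0.24 in size, and 6 with the mean over probe sets (Akr1e1, Akr7a5, Aldh16a1, Aldh18a1, Aldh1a3 and Gstm3), of which Aldh18a1 then passed (0.24, adjusted p = 0.0494). The count of higher members, 6, was 3 to 6 when each array was left out. With a minimum mean log2 value of 6 the count was 1, and none of the 6 was tested there. That 1 was Gstt1 (0.21, adjusted p = 0.00575, limma). With the RNA integrity measure as a covariate (3′ minus 5′ signal) the count was also 1, again a gene not among the 6. The 14 lower members became 22 with an intensity trend and robust variance, 9 with the replicate block, 4 with the covariate and 7 to 13 when each array was left out. The 2 members over 2-fold lower became 1 with the minimum mean of 6, where Gsta2 was not tested, and 1 with the covariate, where Aldh1l1 stayed at −0.96. With the mean over a gene's probe sets there were also 2, Gsta2 and Aldh2. Of the Aldh2 probe sets, the 3 lower and the 2 over 2-fold became 0 and 0 with the minimum mean of 6, because these probe sets were not tested there, and the 2 were 2 to 3 when each array was left out. Over all 45037 probe sets 11250 passed, against 3558 with the covariate, 13787 with the trend, 7906 with the replicate block, 5835 without LC-RD replicate 1 and 5792 without LC-RD replicate 2.

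The labels do not say whether replicate numbers pair the mice. Arrays of the same number had correlations of −0.0431, −0.093 and −0.0303 between their deviations from the group means. Deviations of 3 arrays from their own mean depend on each other, so these correlations cannot decide whether mice were paired. With the replicate block 5 members were higher and 9 lower, and 13 of its 14 members were among those that passed without it. The 3 arrays per group and the low signal of 31 members limit what could be seen.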

Other observations

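Some genes of these families are read only by probe sets shared between genes and so were not counted as members. The Ugt1a genes, which glucuronidate bilirubin, phenols and many drugs and share their last exons, have 3 such probe sets. The first read 8.48, 8.27 and 8.34 in LC-HFD lungs and 9.08, 9.03 and 9.15 in LC-RD lungs, the next 9.57, 9.66 and 9.51 in LC-HFD and 10.19, 10.13 and 10.16 in LC-RD, and the last 7.44, 7.40 and 7.35 in LC-HFD and 8.24, 8.22 and 8.22 in LC-RD. All were lower without overlap, by −0.72 (adjusted p = 0.00181, limma), −0.58 (adjusted p = 0.00249) and −0.83 (adjusted p = 0.000567), whereas the 11 Ugt genes with probe sets of their own had a median difference of 0.19 at low signal. The Ugt1a genes cannot be told apart on this array.

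The 3 genes left out by name were lower too. Gsta3, an alpha-class transferase that also isomerizes steroids, differed by −1.43 (6.62 ± 0.138 in LC-HFD and 8.05 ± 0.153 in LC-RD, adjusted p = 0.000444). The retinal-oxidizing enzymes Aldh1a1 and Aldh1a2 differed by −0.44 (adjusted p = 0.0187) and −0.58 (adjusted p = 0.0119). They were chosen for leaving out with results of these data known, so they add no independent support to the counts of the members.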
